A study of Homo sapiens with 4 samples.

Results

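The DNA replication and S-phase genes described here are 44 genes whose products license replication origins, open the DNA, copy it, join the new strands, supply deoxynucleotides or package the new chromatin. They were listed by gene name, with earlier results of these data known, and all 44 were found among the 20497 genes that could be named on the arrays. For each gene the brightest of its probes was used, that is the one whose signal, averaged over all 4 arrays, was highest.

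MCF-10A, an established human mammary epithelial line of non-cancerous origin that the study describes as free of oestrogen receptor-alpha and BIG3, was treated with stapled peptides made from the PHB2-binding stretch of BIG3. The study asked what an off-target stapled peptide does to gene expression in these normal cells. Its 4 groups were stapled-peptide for 24 h, non-specific stapled-peptide for 24 h, stapled-peptide for 48 h and non-specific stapled-peptide for 48 h, each at 10 µM and each with 1 single-colour Agilent array. All cells were grown in the same mammary medium with pituitary extract, hydrocortisone, EGF, insulin and cholera toxin, and no untreated cells are among the samples. The study describes its MCF-10A arrays as comparing a stapled peptide without significant effect on the growth of these cells with another that reduced it. For the latter it proposes off-target effects on extracellular matrix pathways. The labels do not say which of the numbered stapled peptides of the study each name stands for, and the treatment label of both non-specific arrays reads control. The peptides are called stapled and non-specific below for short. Differences are on the log2 scale, as non-specific minus stapled at a given time, or as 48 h minus 24 h with a given peptide. With 1 array per group no test was possible, the spread between cultures is unknown, and the precision of every value is limited by having 4 arrays.

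DNA replication begins when the origin recognition complex, CDC6 and CDT1 load the MCM helicase onto DNA during G1 phase. In S phase CDC45 and the GINS complex join the helicase and open the DNA, and polymerases held by the PCNA clamp copy both strands. Transcription of many of these genes is switched on together at the border of G1 and S phase by E2F factors, so that their summed level is widely used as a sign of cycling cells. In RNA from a whole culture, fewer cells in S phase and less RNA per cell cannot be told apart.

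The non-specific array at 48 h stood apart from the other 3 across the genes at large and not only in these. Across 32704 to 36193 probes per comparison, each well above background on at least 1 of the arrays compared, its log2 signals had a Pearson's r of 0.80 to 0.81 with those of the other arrays, against 0.98 for each comparison among the other 3. All 4 arrays came from 1 slide with 1 scan time. The cell type markers were also different on it. All 16 basal mammary epithelial markers, such as keratins 5, 6A and 14 and laminin subunits, were well above background on each of the other 3 arrays, with a summed signal of 170965.5 to 177833.9, against 13 of 16 and a sum of 1282.8 on this array. KRT5 had a log2 signal of 14.54 to 14.65 on the other arrays and 5.02 on this array, and KRT6A, COL17A1 and TRIM29 were not well above background there. Of 10 luminal markers 6 or 7 were well above background on every array, and their summed signal was 30603.8 to 32321.2 on the other 3 and 6729.0 on this array. That sum follows its brightest genes and the list was mixed. Of 7 with a difference between the peptides at 48 h, 3 (KIT, FOXA1 and KRT19) were higher on this array and 4 lower. Of 10 fibroblast and stromal markers, 6 or 7 were well above background on the other 3 arrays (sum 31813.9 to 34315.6) and 4 on this array (sum 932.0). Of 7 with a difference at 48 h, 4 were lower on this array and 3 higher, by at most 0.19. Of 15 markers of an embryonic kidney line, 8 or 9 were well above background on the other 3 arrays (sum 2285.2 to 2579.4) and 14 on this array (sum 78687.5), with PAX2 the exception. Of these 15, 13 were higher on this array than with the stapled peptide at 48 h and 2, PAX2 and HOXA10, were lower. On this array the markers thus go against the labelled cell type, MCF-10A. The array is called by its label throughout, and whether its RNA was that of MCF-10A was not tested. These marker levels moved with every difference at 48 h between the peptides and every time difference with the non-specific peptide, and their part in those differences was not tested. The comparison at 24 h and the time comparison with the stapled peptide subtract no signal of this array. It did enter the quantile normalization shared by all 4 arrays and the choice of the brightest probe. It also entered the mean signal by which the genes of like signal below were picked.

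The 44 genes gave a high signal on that array and nearly level signals on the other 3. All 44 had their highest signal of the 4 arrays there, whereas 45.4% of all genes measured on any array did. Over the other 3 arrays the range of a gene's log2 signal had a median of 0.12, from 0.0099 to 0.91, the highest being that of RFC3. The gap from the highest of those 3 to the array that stood apart had a median of 2.40. It was widest for CDC45 (3.85) and narrowest for RRM2 (0.19), and RRM2 was the gene, 1 of 44, whose gap was not above its range over the other 3 arrays. For 43 of the 44 genes the probe was well above background on all 4 arrays. The exception was CDC6, which was well above background on that array and not on the other 3.

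**Figure D1:**
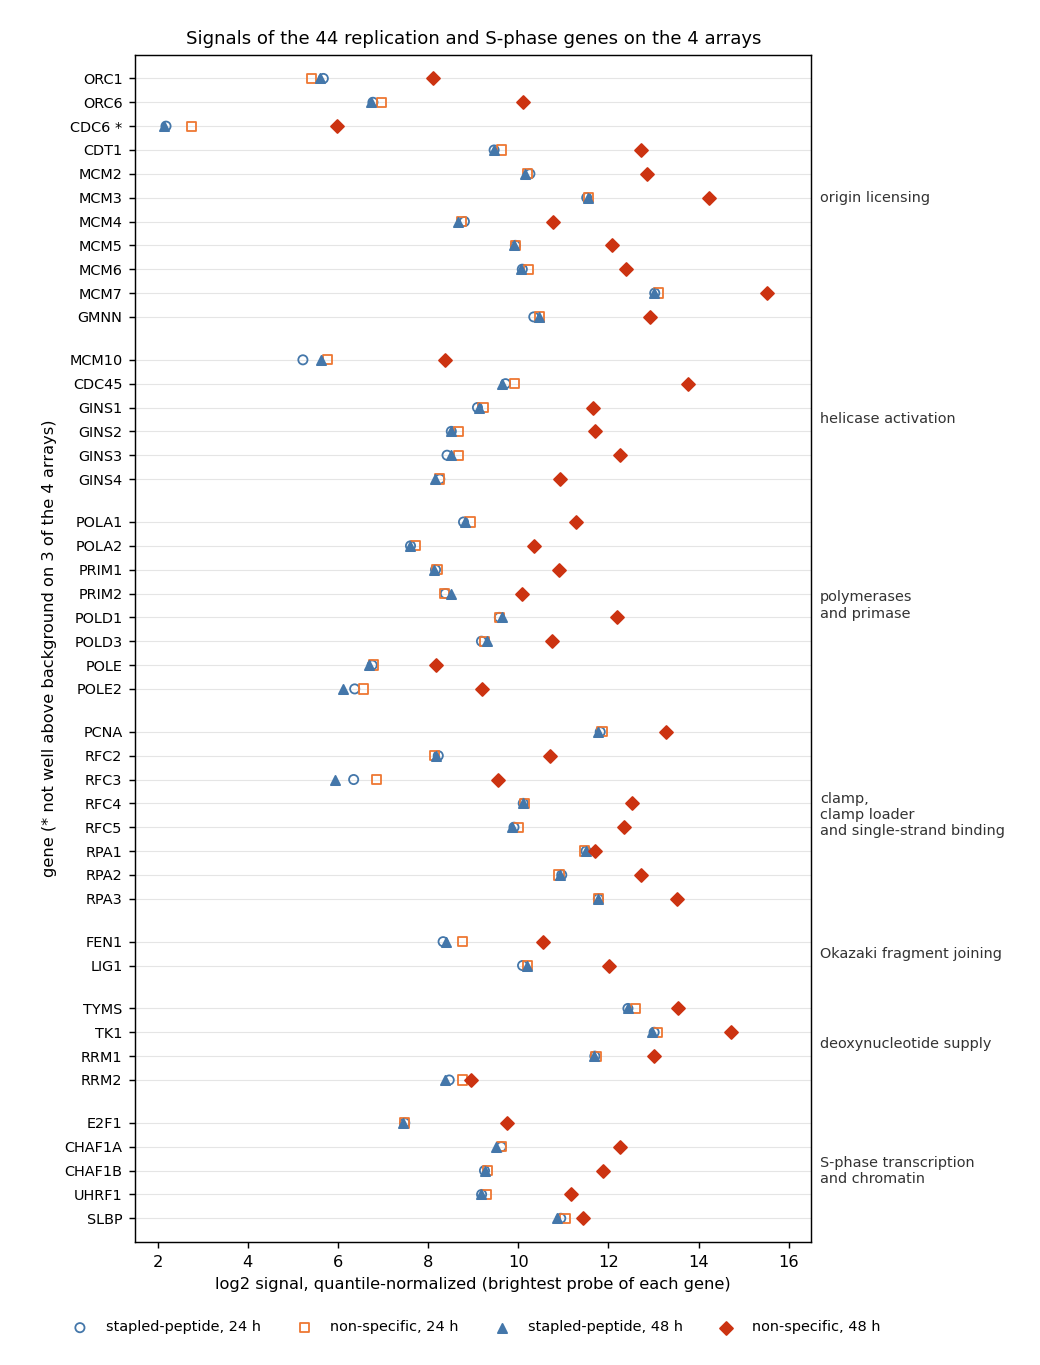
Quantile-normalized log2 signal of the brightest probe of each of the 44 genes (rows, grouped by role) on the 4 arrays (symbols, 1 array each, no error bars). The diamonds (non-specific, 48 h) lie to the right of the other 3 symbols in all 44 rows, by 0.19 for RRM2 up to 3.85 for CDC45.

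At 48 h all 44 genes were higher with the non-specific than with the stapled peptide, with a median log2 difference of 2.47. Among all genes 51.1% were higher, and among the 11005 genes of like signal, those whose mean log2 signal lay between 6.19 and 13.67 as it did for the 43 measured members, 50.1% were. A difference of more than 2-fold was seen in 41 of the 44 (93.2%), beside 21.2% of all genes and 19.0% of genes of like signal. More than 4-fold was seen in 31 (70.5%; 24 with normexp), beside 8.09% of all genes and 5.64% of genes of like signal. None of the 44 was lower by more than 2-fold, where 19.8% of all genes were. The array was thus different in both directions over the genes at large, and in 1 direction over these 44 genes. Of 37 further replication genes, described below, 33 were higher and 4 lower. Placed among the genes of like signal, the members had a median percentile of 96.46, with 36 of them over the 90th, 28 over the 95th and 2 (CDC45 and GINS3) over the 99th. CDC6 is counted in these figures, at percentile 94.86, though its value is a bound. It was well above background on the non-specific array alone, and its mean signal lay below the range of like signal. Among the 43 members well above background on both arrays, 40 were past 2-fold and 30 past 4-fold.

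**Figure D2:**
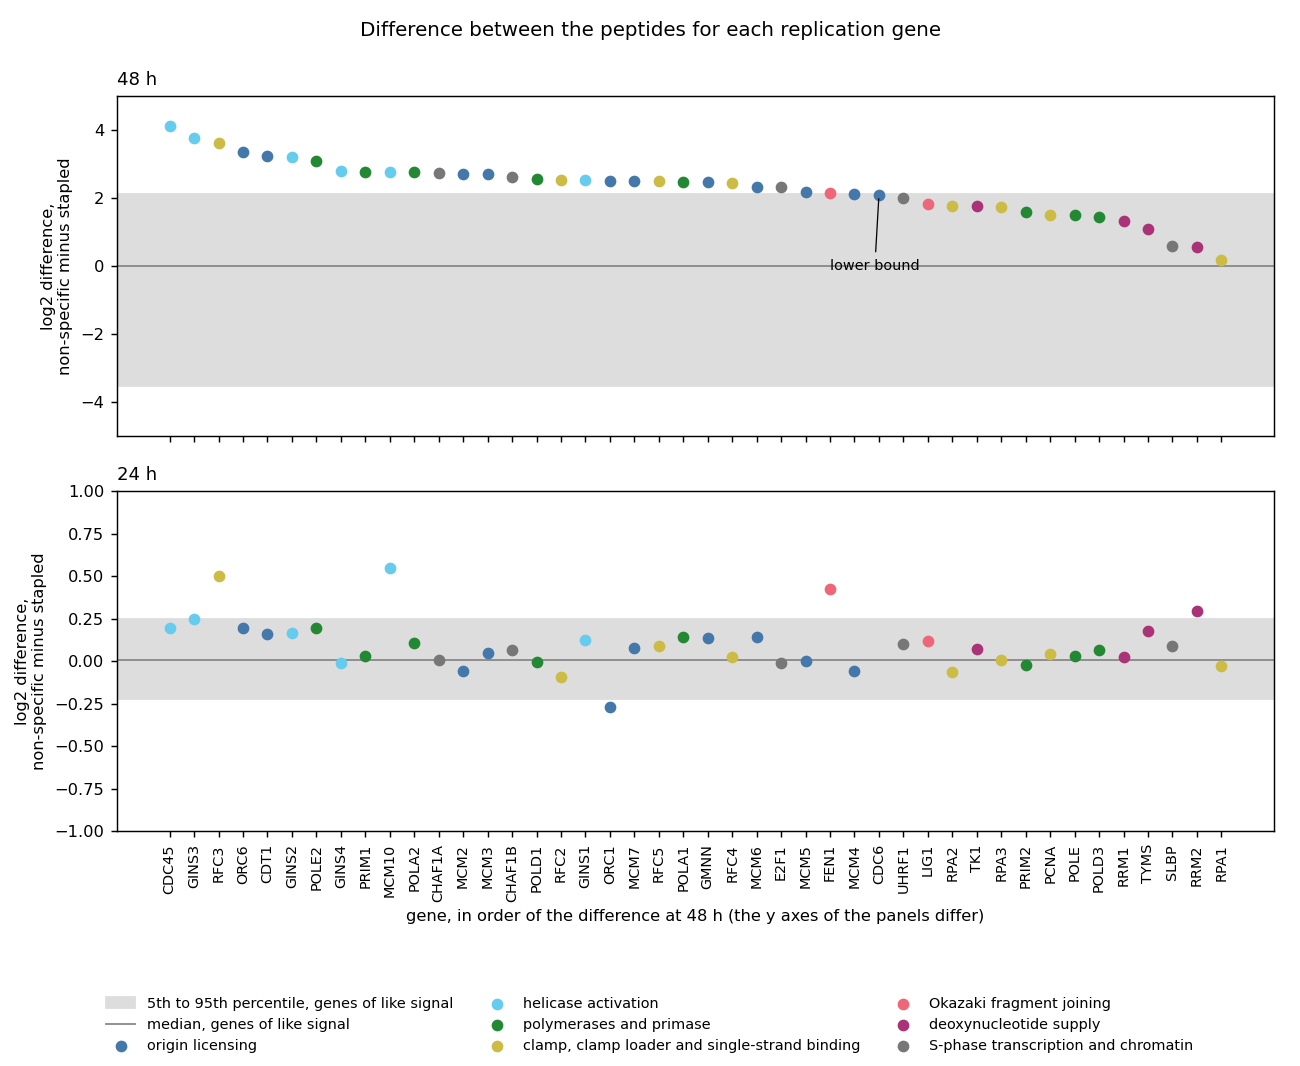
Log2 difference between the peptides (y axis, non-specific minus stapled) for each gene, at 48 h (top) and 24 h (bottom, on a narrower y axis), in order of the difference at 48 h and coloured by role; grey bands span the 5th to 95th percentile of genes of like signal, and each point rests on 1 array per peptide. At 48 h all points lie above 0, from 0.19 for RPA1 to 4.13 for CDC45, and at 24 h, where CDC6 has no value, all but MCM10, RFC3, FEN1, RRM2 and ORC1 lie within the band.

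The letters of the promoters of these genes were also read. Many genes of this kind are switched on by E2F, as said above, so the share with E2F letters describes the list and not the array difference. RefSeq gives a promoter window, 250 bases before to 50 after a transcription start on GRCh38.p14, for 38 of the 44. The letters searched for E2F were TTTCCCGC, TTTCGCGC, TTTGCCGC and TTTGGCGC on both strands, of which the last can overlap the second read from the other strand. They were present for 20 of the 38 genes (52.6%), against 3.99% of 27305 genes with a window and 5.37% of the 15617 of those that are on the array. A CCAAT box, read as CCAAT on both strands, was present for 23 of the 38 (60.5%) against 39.7% of all genes with a window, and also for 19 of 30 other replication genes (63.3%) and 22 of 28 genes of G2 and mitosis (78.6%). The letters TTTGAA and TTCGAA, read here for the cell cycle homology region of G2 genes, were present for 2 of the 38 (5.26%) against 19.5%. A match of letters is a description and does not show a bound site. Genes with and without the E2F letters were alike in their differences, and the median log2 difference at 48 h was 2.48 over the 20 genes with them, from 1.1 for TYMS to 3.75 for GINS3, and 2.50 over the 18 without, from 0.19 for RPA1 to 4.13 for CDC45.

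The 160 bases before the start are given for the 4 genes with the largest differences at 48 h whose E2F letters lie wholly before the start, and for MCM6 and E2F1, chosen after their letters were seen because they hold several matches. The promoter of RFC3 is chr13:33817989-33818148 on the plus strand, CDT1 chr16:88803629-88803788 on the plus strand, GINS2 chr16:85688955-85689114 on the minus strand, POLA2 chr11:65261802-65261961 on the plus strand, MCM6 chr2:135876444-135876603 on the minus strand and E2F1 chr20:33686386-33686545 on the minus strand (RefSeq, GRCh38.p14). Each is written 5′ to 3′ along the gene, with the matched E2F letters in capitals.
RFC3: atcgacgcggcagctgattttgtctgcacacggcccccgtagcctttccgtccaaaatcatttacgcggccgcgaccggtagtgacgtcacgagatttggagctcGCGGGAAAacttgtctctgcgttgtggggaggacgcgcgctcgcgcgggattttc
CDT1: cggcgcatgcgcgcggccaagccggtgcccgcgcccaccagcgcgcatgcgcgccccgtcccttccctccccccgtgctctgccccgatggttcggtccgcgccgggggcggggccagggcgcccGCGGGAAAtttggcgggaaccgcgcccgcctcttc
GINS2: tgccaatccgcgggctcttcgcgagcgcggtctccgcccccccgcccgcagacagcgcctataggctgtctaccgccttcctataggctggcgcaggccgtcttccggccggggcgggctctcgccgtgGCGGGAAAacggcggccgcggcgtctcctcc
POLA2: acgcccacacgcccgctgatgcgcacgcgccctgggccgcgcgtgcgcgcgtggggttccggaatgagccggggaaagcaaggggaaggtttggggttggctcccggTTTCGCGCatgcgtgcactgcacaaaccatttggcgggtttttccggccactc
MCM6: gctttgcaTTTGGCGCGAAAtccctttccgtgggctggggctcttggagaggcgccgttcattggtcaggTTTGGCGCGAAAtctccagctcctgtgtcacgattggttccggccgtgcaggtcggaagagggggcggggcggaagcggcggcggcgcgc
E2F1: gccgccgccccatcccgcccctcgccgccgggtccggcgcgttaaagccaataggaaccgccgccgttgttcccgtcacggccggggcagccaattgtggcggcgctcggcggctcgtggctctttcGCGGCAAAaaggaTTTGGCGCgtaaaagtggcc
In RFC3, CDT1 and GINS2 the capitals are TTTCCCGC read from the other strand, and in POLA2 they are TTTCGCGC as written. MCM6 holds 2 equal runs of capitals, each of which reads as TTTGGCGC on the strand shown and as TTTCGCGC on the other. E2F1, itself the founding E2F factor, holds TTTGCCGC read from the other strand and, a few bases on, TTTGGCGC as written.

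Origin licensing, with 11 genes, was higher with the non-specific peptide at 48 h by more than 4-fold in every member, with a median log2 difference of 2.49. With normexp, another background correction, 8 of the 11 were, and ORC1 (1.51), MCM4 (1.93) and CDC6 (0.87) were under 4-fold. ORC6, a subunit of the origin recognition complex, had log2 signals of 6.78 and 6.97 at 24 h (here and after, stapled first, then non-specific) and of 6.73 and 10.09 at 48 h, a difference of 3.36 or 10.3-fold at 48 h. Its probe was spotted 10 times, and the spots of 1 array had a standard deviation of at most 0.19 on the log2 scale, which covers the error between spots and not between cultures. ORC1, the largest subunit of the complex, had 5.67 and 5.40 at 24 h and 5.60 and 8.10 at 48 h, a difference of 2.50. Both subunits were thus nearly level on 3 arrays and high on the fourth.

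CDT1, the factor that loads the helicase together with CDC6, had log2 signals of 9.46 and 9.62 at 24 h and 9.47 and 12.72 at 48 h, a difference of 3.25 or 9.51-fold. With the stapled peptide it differed by 0.0020 between the times. CDC6 had a log2 signal of 5.97 on the non-specific array at 48 h and of 2.15 to 2.74 on the arrays where it was not well above background, so that it was at least 4.25-fold higher at 48 h, the bound being set by the lowest signal that was well above background on the stapled array. No difference is given for CDC6 at 24 h or over time with the stapled peptide. GMNN, geminin, which binds CDT1 and stops loading, was also higher, at 10.47 and 12.93 at 48 h, a difference of 2.46. The loading factor and its inhibitor were therefore both higher on the same array.

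The 6 subunits of the MCM helicase moved within a narrow band. Their differences at 48 h ran from 2.11 for MCM4 through 2.18 for MCM5, 2.33 for MCM6, 2.49 for MCM7 and 2.70 for MCM3 to 2.71 for MCM2, with a median of 2.41. MCM7 had the log2 signals 13.03 and 13.11 at 24 h and 13.02 and 15.51 at 48 h. MCM2 had 10.26 and 10.20 at 24 h and 10.15 and 12.86 at 48 h. The whole width of the band of the complex at 48 h was less than the difference of any of its members, and at 24 h the same 6 subunits lay between −0.06 and 0.14. Other probes of MCM5 and MCM7 gave 2.09 and 1.99 at 48 h.

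Helicase activation held the 2 widest differences and the highest median of the roles, 2.99. CDC45, which joins the loaded helicase, had log2 signals of 9.72 and 9.91 at 24 h and 9.63 and 13.76 at 48 h, a difference of 4.13 or 17.5-fold and the largest of the 44. GINS3 had 8.42 and 8.67 at 24 h and 8.50 and 12.26 at 48 h, a difference of 3.75 or 13.5-fold. The 4 GINS subunits, which form 1 complex, were spread more widely than the MCM subunits, with 2.52 for GINS1, 2.79 for GINS4, 3.20 for GINS2 and 3.75 for GINS3. MCM10, which acts as the helicase is switched on, had 5.22 and 5.77 at 24 h and 5.63 and 8.38 at 48 h, a difference of 2.75. All 6 genes of the group were more than 4-fold higher at 48 h, and 5 of them with normexp, where MCM10 was 1.90 higher.

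Among the 8 genes of the replicative polymerases and primase, all were more than 2-fold and 5 more than 4-fold higher at 48 h, with a median of 2.51. The polymerase alpha and primase genes, which start each new strand, had 2.47 for POLA1, 2.75 for POLA2, 2.76 for PRIM1 and 1.59 for PRIM2. The catalytic subunit of polymerase delta, POLD1, was 2.55 higher and its accessory subunit POLD3 1.45 higher. In polymerase epsilon the order was the other way round, with 1.49 for the catalytic subunit POLE and 3.08 for the accessory subunit POLE2, whose log2 signals were 6.37 and 6.57 at 24 h and 6.11 and 9.19 at 48 h. Dimmer probes of PRIM2 gave 1.57 and 0.88 and a dimmer probe of POLE gave 0.65, so that the size of the difference in these 2 genes depended on the probe and its direction did not.

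RFC2, RFC4 and RFC5, which with RFC3 and RFC1 place the PCNA clamp on DNA, were 2.53, 2.43 and 2.49 higher at 48 h. RFC3 was 3.61 higher (12.2-fold), with log2 signals of 6.35 and 6.85 at 24 h and 5.94 and 9.55 at 48 h, and its other probe gave 2.74. PCNA itself had 11.82 and 11.86 at 24 h and 11.77 and 13.27 at 48 h, 2.83-fold higher, and its other 2 probes gave log2 differences of 1.45 and 1.77. RPA2 and RPA3 of the complex that coats single-stranded DNA were 1.78 and 1.75 higher. RPA1, the large subunit of that complex, had 11.50 and 11.47 at 24 h and 11.51 and 11.71 at 48 h, a difference of 0.19 and the smallest of the 44. Its second, dimmer probe was 1.57 higher, and this gap between probes of 1.38 was the widest among the 10 members with several probes. In these 10 members all 22 probes were higher at 48 h.

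FEN1, the flap endonuclease that trims Okazaki fragments, had log2 signals of 8.33 and 8.76 at 24 h and 8.40 and 10.56 at 48 h, a difference of 2.16 at 48 h. LIG1, the ligase that seals the fragments, was 1.84 higher. The genes of deoxynucleotide supply had the lowest median difference of any role, 1.22 over 4 genes and none past 4-fold. TK1, thymidine kinase, was 1.76 higher and RRM1, the large subunit of ribonucleotide reductase, 1.33 higher. TYMS, thymidylate synthase, had 12.43 and 12.61 at 24 h and 12.44 and 13.54 at 48 h, a difference of 1.1.

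RRM2, the S-phase subunit of ribonucleotide reductase, departed from the rest. Its log2 signals were 8.47 and 8.76 at 24 h, and 8.38 and 8.96 at 48 h, so that the array that stood apart was only 0.19 above the next. The difference of 0.58 at 48 h put RRM2 at percentile 69.44 among genes of like signal. SLBP, which binds the stem-loop of histone mRNAs, had 10.94 and 11.03 at 24 h and 10.85 and 11.43 at 48 h, also a difference of 0.58 (percentile 69.56). RPA1, RRM2 and SLBP were the 3 members under 2-fold at 48 h, and TYMS, at percentile 82.97, was the next lowest by rank.

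The other genes of S-phase transcription and chromatin were higher by about as much as the helicase. E2F1 had log2 signals of 7.48 and 7.47 at 24 h and 7.44 and 9.75 at 48 h, a difference of 2.32, and the 10 spots of its probe had a standard deviation of at most 0.0967 on any array. CHAF1A and CHAF1B, subunits of the assembly factor that places histones behind the fork, were 2.74 and 2.61 higher. UHRF1, which brings the maintenance methyltransferase to newly copied DNA, was 2.0 higher, and lay just past 4-fold. The second probes of CHAF1A and UHRF1 gave 2.31 and 1.66.

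At 24 h the replication genes hardly differed between the peptides. The median log2 difference of the 43 genes with a value was 0.07, and 25 of them (58.1%) differed by less than 0.10, the size of a difference that the error between spots of 1 array gives, beside 60.3% of genes of like signal. The sign leaned to the non-specific side, with 33 of 43 higher (76.7%) beside 51.9% of all genes and 52.0% of genes of like signal, and 28 were higher when the arrays were not normalized. Past a log2 difference of 0.32 there were 3 higher members (6.98%), beside 8.28% of all genes and 2.80% of genes of like signal. No member was lower by that much, beside 7.32% of all genes and 227 of 11005 genes of like signal. None was past 2-fold, where 0.837% of all genes and 9 of 11005 genes of like signal were higher. The 3 higher members were MCM10 (0.55), RFC3 (0.50) and FEN1 (0.42), and the lowest of the 43 was ORC1 (−0.27). MCM10 and RFC3 had log2 signals under 7 on both arrays at 24 h, where FEN1 was at 8.33 and 8.76. The second probe of RFC3 was 0.64 higher. The absence of lower members held for the brightest probes only. When all probes of a gene were averaged, POLE (−0.44) and PRIM2 (−0.43) were lower by more than 0.32, and the same 3 members were higher. The second probe of POLE was at −0.90. Of the dimmer probes of PRIM2, the second was at 0.07 and the third at −1.35, past 2-fold. The last value is a bound, as that probe was dim on the non-specific array. With normexp MCM10 was 0.31, RFC3 0.32 and FEN1 0.28 higher, and 0 members were past the threshold, which RFC3 missed in the third decimal.

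Over time the cells with the stapled peptide showed nearly the same signals at 48 h as at 24 h. The median of the 43 genes with a value was −0.02, and 33 of them (76.7%) lay within the error between spots, beside 65.1% of genes of like signal. The sign leaned to 24 h, with 15 of 43 higher at 48 h (34.9%) beside 50.1% of all genes and 50.0% of genes of like signal, and 1 was higher when the arrays were not normalized, a setting that lowers the median of all genes to −0.23. MCM10 (0.41) was the 1 member higher by more than 0.32, beside 7.67% of all genes and 2.14% of genes of like signal. RFC3 (−0.41) was the 1 member lower by more than 0.32, beside 8.32% of all genes and 190 of 11004 genes of like signal. With normexp MCM10 was at 0.17 and RFC3 at −0.14, and with the mean over its probes RFC3 was at −0.16, all within the threshold. None was past 2-fold, where 0.923% of all genes and 5 of 11004 genes of like signal were higher. CDC45, the gene with the widest difference between the peptides, was at 9.72 and 9.63 at the 2 times.

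With the non-specific peptide all 44 genes were higher at 48 h than at 24 h, with a median log2 difference of 2.38. This comparison uses the same array at 48 h as the comparison of the peptides at that time, so its values are given for themselves. The sign was the same in 50.4% of all genes and 49.9% of genes of like signal. Past 2-fold there were 40 members (90.9%), beside 21.3% of all genes and 18.8% of genes of like signal, and past 4-fold 29 members (65.9%), beside 8.12% and 5.54%. CDC45 was again widest (3.85), followed by GINS3 (3.59), ORC6 (3.12), CDT1 (3.09) and GINS2 (3.02). CDC6 was at least 2.19 higher. RRM2 (0.19), RPA1 (0.23), SLBP (0.39) and TYMS (0.93) were the 4 members under 2-fold.

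**Figure D3:**
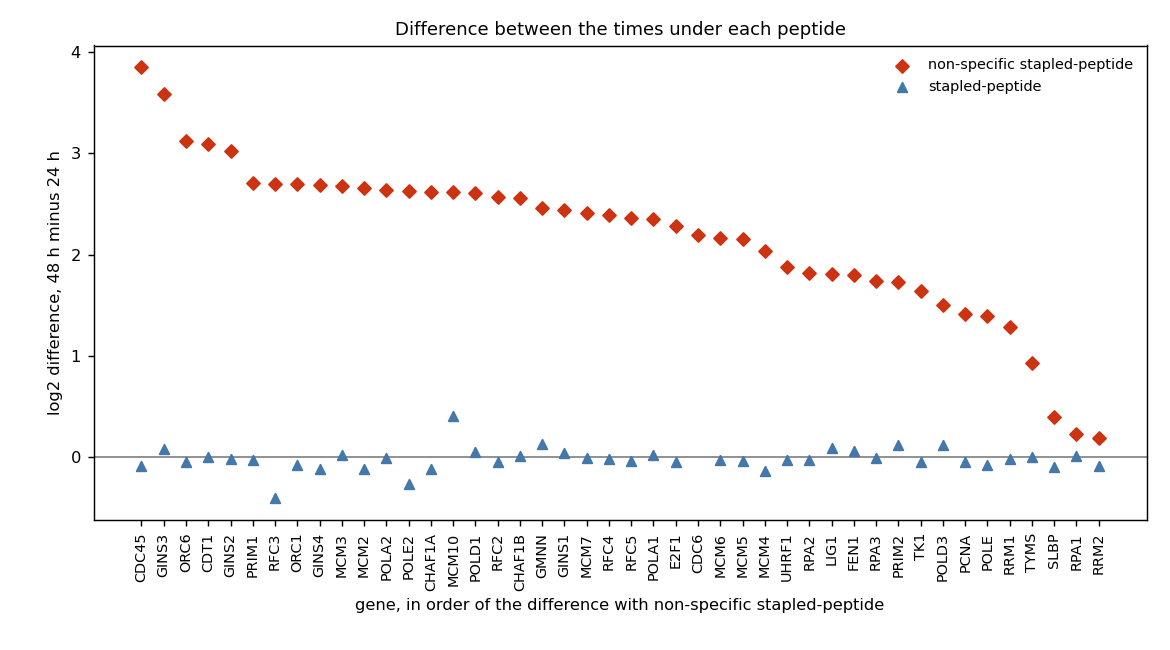
Log2 difference between 48 h and 24 h (y axis) for each gene under the non-specific peptide (diamonds) and the stapled peptide (triangles; none for CDC6), 1 array per peptide and time. The diamonds run from 0.19 for RRM2 to 3.85 for CDC45, and the triangles from −0.41 for RFC3 to 0.41 for MCM10.

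Further genes of replication, 37 that were not among the 44, were higher at 48 h with the non-specific peptide in 33 cases, with a median log2 difference of 1.53 beside 0.03 for all genes. Of these, 25 were more than 2-fold and 14 more than 4-fold higher. Among all genes 51.1% were higher, 21.2% by more than 2-fold and 8.09% by more than 4-fold. CDC7, the kinase that fires licensed origins, had log2 signals of 7.44 and 7.54 at 24 h and 7.43 and 11.86 at 48 h, a difference of 4.43 and wider than that of any of the 44. Among the others past 4-fold were the E2F factors E2F2 (3.99), E2F8 (3.03) and E2F7 (2.49), the fork proteins WDHD1 (2.89), TIMELESS (2.79), TIPIN (2.76) and CLSPN (2.63), RNASEH2A (2.68), DTL (2.54), TICRR (2.43), NASP (2.34) and DSCC1 (2.31). The genes lower by more than 4-fold were POLD4, the smallest subunit of polymerase delta (−3.02), and RRM2B, the p53-responsive subunit of ribonucleotide reductase (−2.11). These subunits thus stood on the opposite side from POLD1, POLD3, RRM1 and RRM2 of the same enzymes. The remaining lower genes were ORC2 (−0.27) and POLE4 (−0.20).

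Genes of G2 and mitosis were higher by less. Of 33, 30 were higher at 48 h, beside 51.1% of all genes, with a median of 1.48, and 9 were past 4-fold, beside 8.09% of all genes. These 9 were AURKB (2.84), MYBL2 (2.76), MAD2L1 (2.69), NUF2 (2.41), TTK (2.38), PRC1 (2.37), CENPE (2.24), BIRC5 (2.21) and KIF11 (2.06), most of them parts of the spindle or its checkpoint. The 3 lower genes were the proliferation marker MKI67 (−0.98), KIF20A (−0.72) and ANLN (−0.20). At 24 h the same list had a median of 0.17 with 30 of 33 higher, beside 51.9% of all genes. The lean to the non-specific side at 24 h was thus also present in the mitosis genes. In their promoters the E2F letters were found for 2 of 28 and the TTTGAA or TTCGAA letters for 21 of 28, where the replication genes had 20 and 2 of 38.

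The G1 cyclins, kinases, inhibitors and RB genes did not lean as far to 1 side, with 15 of 22 higher at 48 h, beside 51.1% of all genes, and a median of 0.31. CDKN2A, which codes for p16 and p14ARF, was 5.58 higher, at 8.68 with the stapled and 14.26 with the non-specific peptide. CCND1, cyclin D1, was −4.15 (10.25 and 6.09), CDKN1A, p21, was −2.96 and CCND3 was −2.65. E2F5 (2.31) and cyclin A2, CCNA2 (2.19), were the other genes of the list higher by more than 4-fold, as were 8.09% of all genes. The genes of this list, which holds cyclins and kinases beside their inhibitors and some E2F factors, were therefore on both sides. The 44 replication genes were on 1 side.

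**Figure D4:**
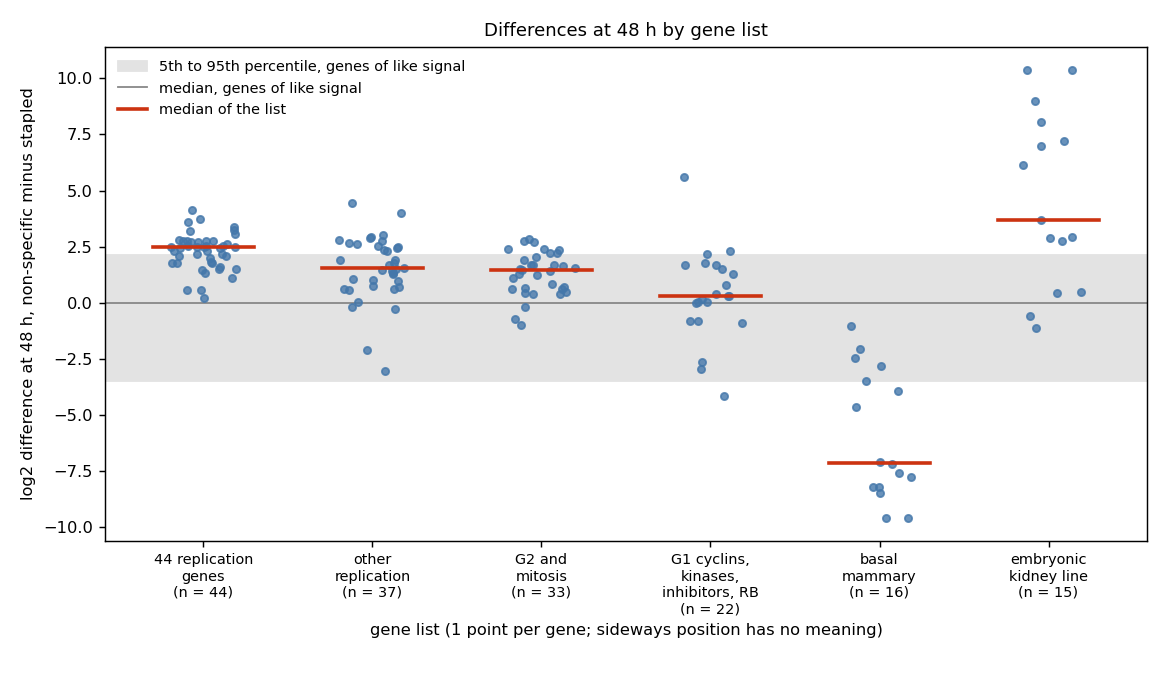
Log2 difference at 48 h (y axis, non-specific minus stapled) of each gene in 6 lists (points; bounds are drawn at their bound), with the median of each list (red line) and the 5th to 95th percentile of genes of like signal (grey band). The medians are 2.47 for the 44 replication genes, 1.53 for other replication genes, 1.48 for G2 and mitosis, 0.31 for the G1 list, −7.14 for basal mammary markers and 3.68 for embryonic kidney line markers.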

How the data were processed

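RNA labelled as from MCF-10A cells treated with 10 µM of each peptide for 24 h or 48 h was hybridized to 4 single-colour Agilent arrays, 1 per peptide and time. Spot intensity values were made by the authors with Feature Extraction (version 10.7.1.1 per the file headers, version 9.5 per the submitters' processing notes) and deposited as linear, background-subtracted signals without normalization between arrays. The deposited value table of the series equals their mean over the spots of a probe, within 0.1%, for 49887 to 49961 of 50739 probes per array, and 0 of its columns had no sample. On the arrays, 62.5% to 65.7% of spots were well above background.

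Control spots and outlier-marked spots were dropped, log2 signals (floor 1) were averaged per probe, and 50590 of 50599 probes were quantile-normalized, as the methods of the study state. Probes were named through RefSeq transcript accessions (28164 probes, 20497 genes), and probes whose accession matched no gene or several have no name here. A probe dim on 1 array of a comparison was raised there to the lowest signal well above background, which gives a bound. With 1 array per group no test was run. Shares past 1.25-fold, 2-fold and 4-fold are set beside those of all genes and of genes within the members' range of mean signal over the 4 arrays. Named were all members and, of each other list, the genes past 4-fold in a comparison, 1 of which is not reported here. Lower genes under that fold were named after their values were seen. The members and lists were chosen with earlier results of these data known. Alternatives were no normalization, scaling by the 75th percentile, normexp (offset 50), no bound, genes well above background on both arrays, outlier-marked spots kept, the mean over a gene's probes, the authors' value table, and thresholds of 1.5-fold and 4-fold. The steps were tested on simulated data. Python 3.11.15, numpy 2.4.6, pandas 2.3.3, matplotlib 3.10.9, and limma 3.58.1 in R 4.3.3 were used.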

Additional observations from a re-analysis of the deposited data

Results flagged for a closer look

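RFC3, a subunit of the clamp loader, is singled out because its time difference went opposite ways under the peptides: the log2 difference between 48 h and 24 h was −0.41 for the stapled peptide and 2.70 for the non-specific peptide, from 1 array per peptide and time. The difference between these effects was not tested. The second probe of RFC3 gave 0.09 and 2.19, so the lower signal at 48 h with the stapled peptide was seen with the brighter probe only. The stapled value was −0.14 with normexp and −0.16 with the mean over both probes, within the threshold of 0.32.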

How the results depend on the processing

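No member with a log2 difference past 0.32 changed direction under any alternative. The median log2 difference at 48 h moved from 2.47 to 2.30 when arrays were scaled to the 75th percentile, to 2.64 with no normalization and to 2.23 with normexp. Over time with the non-specific peptide it moved from 2.38 to 2.23 with scaling and to 2.07 with normexp. Over time with the stapled peptide it moved from −0.02 to −0.23 with no normalization, where 1 member in place of 15 was higher at 48 h; without normalization the median of all genes was itself −0.23 in that comparison and 0.26 at 48 h. Scaling took the median of all genes to −0.12 in the time comparison with the non-specific peptide. Members past 2-fold at 48 h numbered 40 to 41 under every alternative at that threshold, and 0 at 24 h and over time with the stapled peptide. Members higher at 24 h numbered 28 to 34, and the median there moved by less than the error between spots. Averaging all probes moved POLE at 24 h from 0.03 to −0.44 and PRIM2 from −0.02 to −0.43. With the mean over its probes, RPA1 was 0.88 higher at 48 h in place of 0.19. No paired analysis was possible because each group has 1 array. Among the brightest probes of the members, only that of CDC6 was not well above background on every array. Values of other members also depended on the background correction. With normexp the differences at 48 h fell from 2.50 to 1.51 for ORC1, 2.75 to 1.90 for MCM10 and 3.61 to 2.54 for RFC3. Members past 4-fold at 48 h numbered 24 with normexp in place of 31. The spread between cultures cannot be had from these arrays.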
